A study of Homo sapiens with 16 samples.

Results

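A549/cDDP is a cisplatin-resistant derivative of A549, an established line of human lung adenocarcinoma cells. The comparison described here set A549/cDDP cells transfected with a control gapmer against A549/cDDP cells that were not transfected, both in solvent, the liquid that carries cisplatin in the treated groups. It used 4 of the 16 RNA libraries of the study, chosen by their labels, with 2 libraries in each group and 17198 genes tested of 60448 identifiers in the table. All 4 libraries came from cells that had been kept between experiments in medium with cisplatin, at a concentration labelled as 15 mM, a unit printed as the labels give it. In both groups 35000 cells were seeded per well. Untransfected cells were seeded overnight and then held in solvent for 24 h. Transfected cells received 12 pmol of gapmer with the lipid reagent lipofectamine RNAiMAX and were harvested 48 h later, after 24 h in solvent. The transfected cells therefore also had more time after seeding and since their maintenance medium, and no group received reagent alone. Effects of reagent, oligonucleotide and time cannot be told apart. The sequence of the control gapmer is not given in the sources used here. The same transfection was also done in cisplatin, in 4 other libraries. They gave the same measure in samples that share none with the comparison in solvent. Cells of these libraries were held for 24 h in cisplatin in place of solvent, at a concentration labelled as 15 mM. Levels in solvent are also given for untransfected parental A549, which was not kept in cisplatin. They are given as well for A549/cDDP transfected with the other gapmer of the study, 12 pmol for 48 h.

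A gapmer is a short antisense oligonucleotide with a DNA core, and the core directs the cell's RNase H to cut the RNA that it pairs with. Foreign or misplaced nucleic acid is detected by sensor proteins in the endosome and the cytosol. Their signal passes through adaptor proteins and interferon regulatory factors to the genes of type I and type III interferons. Secreted interferon then acts through its receptors, JAK kinases and a transcription complex that contains STAT2 and IRF9 on genes that carry a matching response element, which include antiviral effectors, the sensors themselves and the machinery of antigen presentation.

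Depth was recovered from low values of the table. It came to 38719000 and 33222000 fragments without transfection and 43141000 and 43078000 with the control gapmer, so the transfected libraries were the deeper ones. Replicates correlated across genes at 0.994 without transfection and 0.995 with the control gapmer, and their median absolute difference was 0.07 on the log2 scale in each group. Since the labels do not call the replicates separate cultures, the spread behind each p-value is that between libraries and may be technical. Keratins of simple epithelium were abundant, with KRT8 at 1800.3 to 2180.1 FPKM (fragments scaled by gene length and library total) and KRT7 at 2850.2 to 3647 FPKM. EPCAM, at 0.953 to 1.63 FPKM, and CDH1, at 2.83 to 5.67 FPKM, were low. CDKN2A and CDKN2B, which lie in a segment that A549 has lost, were listed at 0. Of 16 markers of other lineages, COL1A1, at 36.6 to 40.6 FPKM, made nearly all of a summed level of 37.5 to 41.7 FPKM. The leukocyte marker PTPRC stood at 0 to 0.115 FPKM and CD3E at 0.

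After control gapmer transfection 6828 genes passed the threshold (limma, Benjamini-Hochberg adjusted p under 0.05), which is 39.7% of the genes tested. Of these, 3562 rose (20.7%) and 3266 fell (19%). The balance depended on the scaling and turned under quantile normalization, which gave 3179 higher and 3759 lower. At least 2-fold changes on the scale log2(FPKM + 0.5) were fewer and mostly upward: 348 genes rose that far (2.02%) and 126 fell (0.733%). The 348 held 302 protein-coding genes, and the 126 held 52 protein-coding genes, 27 long noncoding RNAs and 19 small RNA genes. Libraries came from oligo(dT)-selected mRNA, so reads listed for small RNA genes need not come from the small RNAs themselves. Both libraries of one group lay above both of the other for 72.5% of genes, so separation of the libraries is common here and is given below as a description. The median change of all genes tested was -0.01. Rose and fell are used below for genes past the threshold.

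**Figure D1:**
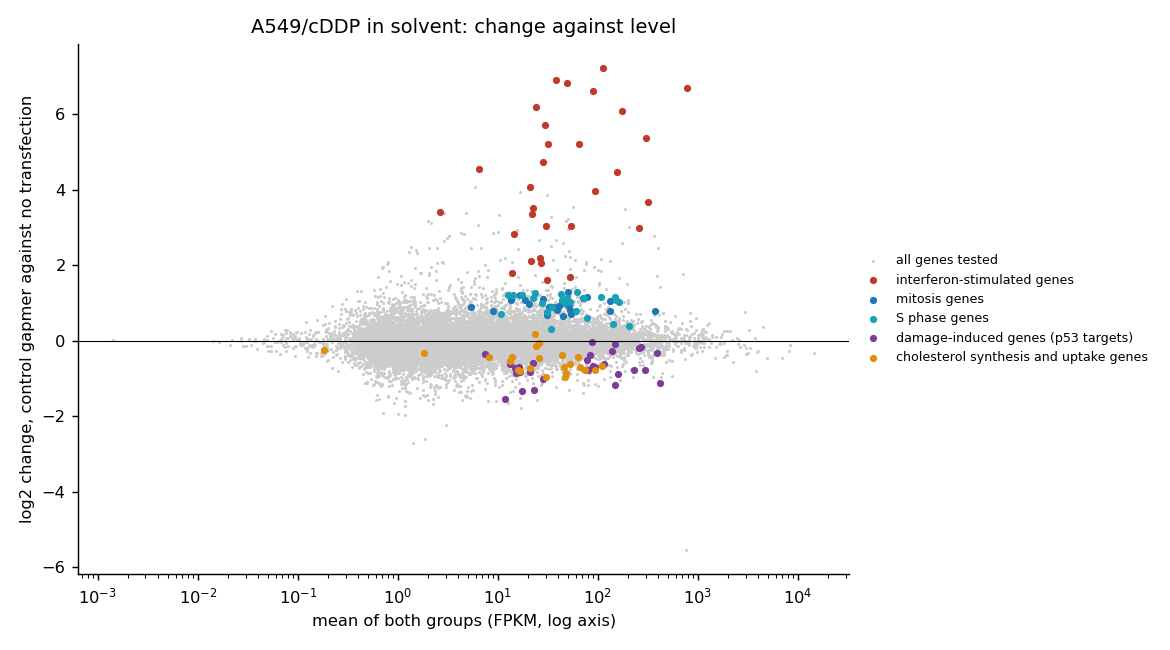
Each point is 1 gene tested, with its mean of both groups' mean FPKM on the horizontal log axis and its log2 change with the control gapmer against no transfection on the vertical axis; colours mark 5 gene lists. The 30 interferon-stimulated genes lie between 1.62 and 7.23, the mitosis and S phase genes between 0.32 and 1.30, and the damage-induced and cholesterol genes mostly below 0.

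Interferon-stimulated genes made up the largest rises. All 30 listed antiviral and interferon-stimulated genes rose, by 1.62 to 7.23 on the log2 scale, with a median of 4.03. Of the 30, OAS2, RSAD2, XAF1, IFITM1, MX2 and IFI44L had a mean under 0.5 FPKM over the 8 untransfected libraries of the study and passed the filter on low values only through transfected groups, so the count and the median describe the list and are no test of it. The filter let in 787 of the 17198 genes in this way, ZBP1, CFB, HRK and BCL2 of the lists below among them. The 12 genes with the largest rise among all genes with at least 5 FPKM in the higher group were all members of this list. They were IFI27, OAS2, RSAD2, IFI6, IFIT1, XAF1, MX1, IFI44L, ISG15, CMPK2, IFIT3 and OASL.

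Sequence upstream of these genes is shown because it holds the letters of the interferon response element, read here as GAAA, any 2 bases, GAAA on either strand. Each window is 60 bases from the RefSeq promoter table (build GRCh38.p14), written 5′ to 3′ on the gene's strand, with every match in capitals. For ISG15 the 200 bases before the start are given. IFI27, RSAD2 and IFIT3 have 2 promoters in that table and MX1 has 3. For these the first promoter that held a match before the start is shown.
IFI27 chr14:94110616-94110675 (+): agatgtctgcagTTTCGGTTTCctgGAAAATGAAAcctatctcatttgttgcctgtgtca
RSAD2 chr2:6877607-6877666 (+): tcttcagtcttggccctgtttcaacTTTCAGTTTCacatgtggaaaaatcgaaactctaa
IFI6 chr1:27672251-27672310 (-): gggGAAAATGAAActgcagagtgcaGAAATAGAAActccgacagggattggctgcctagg
IFIT1 chr10:89392495-89392554 (+): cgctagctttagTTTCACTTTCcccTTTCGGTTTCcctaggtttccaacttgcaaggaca
MX1 chr21:41431829-41431888 (+): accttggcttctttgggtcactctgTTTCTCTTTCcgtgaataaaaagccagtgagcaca
IFI44L chr1:78620350-78620409 (+): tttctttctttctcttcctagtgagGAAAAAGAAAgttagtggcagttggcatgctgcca
IFIT3 chr10:89327850-89327909 (+): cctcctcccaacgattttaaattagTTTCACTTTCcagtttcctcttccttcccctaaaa
ISG15 chr1:1013297-1013496 (+): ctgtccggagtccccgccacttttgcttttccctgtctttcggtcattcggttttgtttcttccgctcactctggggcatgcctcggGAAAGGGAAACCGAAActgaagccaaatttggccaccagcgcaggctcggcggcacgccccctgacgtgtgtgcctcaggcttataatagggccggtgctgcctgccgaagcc

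In the promoters shown, the last match before the start began 95 bases before it in IFI27, 145 in RSAD2, 93 in IFI6 and 103 in IFIT1. The distance was 196 bases in MX1, 73 in IFI44L, 122 in IFIT3 and 107 in ISG15. In ISG15 a pair of matches overlap, and a single capital run holds both. OAS2 and OASL have no entry in the promoter table, and XAF1 and CMPK2 held no match in a window of 250 bases before to 50 after the start. Across the table the motif was found in 1255 of 35116 promoters (3.57%), and in 502 of 16525 promoters of genes tested (3.04%). Among genes that rose at least 2-fold it was found in 72 of 327 promoters (22%), against 1 of 76 for genes that fell at least 2-fold (1.32%). Promoters of the interferon-stimulated list held it in 22 of 34 cases (64.7%) and those of the class I antigen presentation list in 7 of 14. None of 29 promoters of S phase genes, 26 of mitosis genes or 23 of cholesterol genes held it. Motifs of other factors were searched in the same way. That of AP-1 (TGA, any 2 bases, CA) was found in 19 of 34 promoters of the interferon-stimulated list (55.9%). Among promoters of genes tested it was found in 4794 of 16525 (29%). A sterol response motif was found in 1 of 23 promoters of cholesterol genes. The other motifs are not reported here. A match is a description of letters, not a site shown to be bound.

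IFI6, a mitochondrial survival protein, stood at 14.3 and 14 FPKM without transfection and 1424 and 1643 FPKM with the control gapmer. It rose 108-fold as a ratio of means and by 6.71 ± 0.13 (SE) in log2 units (limma adjusted p = 4.76e-11). The transfected libraries lay far above the untransfected ones. That the groups do not overlap in any of the 12 genes follows from the rule that chose them.
ISG15, a ubiquitin-like protein that is joined to other proteins, went from 13.6 and 14.2 to 543 and 653 FPKM, a rise of 5.37 ± 0.14 (limma adjusted p = 2.62e-10). MX1, a GTPase that blocks viral nucleocapsids, stood at 4.53 and 4.45 FPKM and then at 304 and 379.9 FPKM, a rise of 6.09 (limma adjusted p = 1.57e-10). Both genes were already measurable without transfection.
IFI27 was low without transfection, at 1.19 and 0.823 FPKM, and reached 197 and 254 FPKM. OAS2, a synthetase of the 2-5A messenger that switches on RNase L, stood at 0.152 and 0.109 FPKM and then at 58.9 and 94.6 FPKM. IFIT1, which binds RNA lacking a host cap, went from 1.24 and 1.33 to 151 and 202 FPKM. In these 3 genes the untransfected libraries were low and far below the transfected ones. RSAD2, the antiviral enzyme viperin, went from 0.304 and 0.38 to 74.7 and 123 FPKM. Its gene overlaps CMPK2 on the opposite strand, and CMPK2 rose from 0.815 and 1.58 to 49 and 75.7 FPKM. The strand setting of the authors' counting is not stated, so reads of the shared stretch cannot be assigned to either gene.

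The smallest rises of the list were 1.62 for IFITM2 and 1.68 for BST2, the membrane protein tetherin, which stood at means of 24.9 and 81.1 FPKM. IFITM1, IFITM2 and IFITM3, similar neighbouring genes whose reads may be shared, all rose. Summed over the 30 genes, the level was 270.8 and 267.5 FPKM without transfection and 4939.8 and 6065 FPKM with the control gapmer. That is 0.0367% and 0.0364% of all FPKM before and 0.663% and 0.822% after. The transfected replicates were not equal for this list. All 30 genes were higher in replicate 2, with a median ratio of 1.29 of replicate 2 over replicate 1. Of all 17198 genes tested, 8573 were higher in that library, with a median ratio of 0.9996. Without transfection 12 of the 30 genes, and 8710 of all genes tested, were higher in replicate 2. Without replicate 1 of the control gapmer the median change of the list was 4.29, and without replicate 2 it was 3.77, with all 30 genes past the threshold in each case. A change in the share of responding cells and a change in RNA per cell cannot be told apart in bulk libraries.

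**Figure D2:**
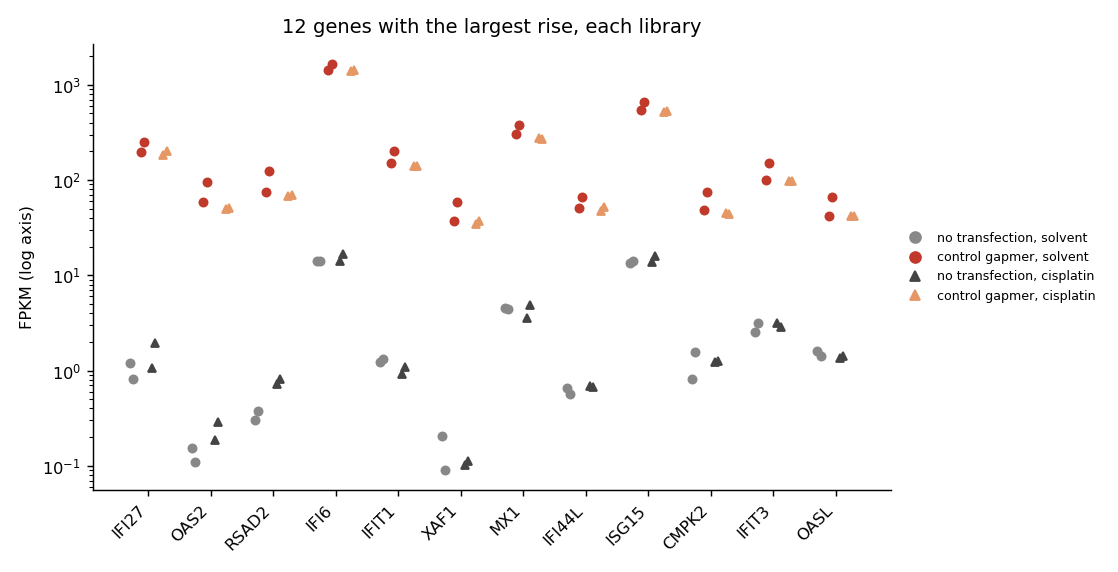
FPKM in each library, on a log axis, of the 12 genes with the largest rise in solvent; circles are the 4 libraries in solvent and triangles the 4 in cisplatin, grey without transfection and red or orange with the control gapmer. In every gene both red circles lie above both grey circles, which the choice of genes required. IFI6, for instance, stood at 14.3 and 14 against 1424 and 1643 FPKM.

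The genes that sense nucleic acid and pass the signal on rose as well. Of 20 listed, 18 were tested, 15 rose and 1 fell, with a median of 1.28. IRF7, the interferon regulatory factor that is itself induced by interferon, went from 3.49 and 3.55 to 53.5 and 62.5 FPKM (3.86 ± 0.17, limma adjusted p = 1.25e-08). The cytosolic RNA sensors IFIH1 (MDA5) and RIGI (RIG-I) rose by 3.23 and 2.58, RIGI from 12.4 and 12.5 to 66.2 and 88.9 FPKM. STAT2 and IRF9, subunits of the interferon-activated transcription complex, rose by 2.07 and 1.34. EIF2AK2 (PKR), the kinase that halts translation on double-stranded RNA, rose by 1.49, and ADAR, which edits double-stranded RNA, by 0.99. The kinase TBK1 and the constitutive factor IRF3 moved by -0.01 and 0.02 and did not pass the threshold. MAVS, the adaptor of RIG-I and MDA5, fell by 0.51 to a mean of 16 FPKM. CGAS, the cytosolic DNA sensor, rose by 0.30. TLR3, an endosomal sensor of double-stranded RNA, rose from 3.05 and 3.81 to 6.95 and 10.5 FPKM, while TLR7 and TLR8 were listed at 0 in all 4 libraries and TLR9, the sensor of CpG DNA, at no more than 0.0389 FPKM.

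Interferon genes themselves were at low levels, and the family was taken by its names after the values had been seen. Of 22 identifiers, 5 were tested and 13 were listed at 0 in all 4 libraries, among them IFNG and most IFNA genes. IFNL1, a type III interferon, was listed at 0 in both untransfected libraries and at 1.57 and 1.65 FPKM with the control gapmer. Set against 3 reads over the untransfected group, it was at least 33.1-fold higher. IFNL2 and IFNL3, near-identical copies whose reads may be split between them, were also at 0 before and at 1.37 to 1.48 FPKM after, at least 25.3-fold and 25.9-fold higher. IFNB1, the first type I interferon made by many cells, stood at 0.15 and 0.0701 FPKM without and 0.594 and 0.54 FPKM with the control gapmer, with about 7 reads behind the untransfected and 42 behind the transfected values. These 4 genes passed the filter on low values only through transfected groups, so their levels are given with no test. IFNE was lower, at 3.13 and 3.22 and then 2.17 and 1.92 FPKM. Of 9 receptor subunits and their kinases, IFNGR1 and IFNGR2 rose by 0.25 and 0.23, and IFNAR1 and IL10RB fell by 0.24 and 0.24. IFNLR1, IFNAR2, JAK1, JAK2 and TYK2 did not pass the threshold. Those 2 rises and 2 falls are near the 20.7% and 19% of all genes tested. The floor of 3 reads allows for counting error and for no other, PCR copies among the reads included.

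All 14 listed genes of class I antigen presentation rose, by 0.20 to 2.60, with a median of 1.40. HLA-B, a class I heavy chain, went from 47.2 and 50.5 to 274 and 323 FPKM (2.60 ± 0.15, limma adjusted p = 1.12e-07). HLA-C rose from 47.7 and 44.4 to 157 and 177 FPKM. Class I genes are similar in sequence and their reads may be shared. B2M, the light chain common to all of them, rose by 1.77 from a mean of 322 to 1104 FPKM. NLRC5, the transactivator of class I genes, rose from 4.39 and 4.67 to 21.9 and 32.8 FPKM. The immunoproteasome subunits PSMB9, PSMB8 and PSMB10 rose by 1.90, 1.42 and 1.20, and the peptide transporter genes TAP1 and TAP2 by 1.35 and 1.27. CALR, a chaperone of the loading complex with many other clients, rose least, by 0.20.

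Other families known to answer interferon were again taken by name after the values had been seen. Of the guanylate-binding proteins, GBP1, GBP2, GBP3 and GBP4 rose, GBP1 from 9.62 and 9.21 to 35.2 and 51.1 FPKM. GBP5 stood at 0.0442 and 0.0901 and then 2.39 and 2.94 FPKM, and GBP6 and GBP7 were too low to be tested. The chemokine CXCL10, a ligand of the T cell receptor CXCR3, went from 0.0439 and 0.102 to 3.96 and 7.46 FPKM, and CXCL11 from 0.5 and 0.304 to 6.70 and 11.7 FPKM. CCL5 was already expressed and rose from 11 and 8.90 to 57.3 and 75 FPKM. All 3 were low or moderate before transfection, with no overlap between the groups. GBP5, CXCL10 and CXCL11 passed the filter on low values only through transfected groups, and their values are a description. Of 14 poly(ADP-ribose) polymerase genes, 7 rose, led by PARP10 (3.17), PARP9 (3.03), PARP12 (2.38) and PARP14 (2.03), and TIPARP fell by 0.26. The shares of all genes tested that rose and fell were 20.7% and 19%. PARP1, the main DNA damage-sensing member, rose by 0.25. The 4 apolipoprotein L genes tested rose by 1.02 to 2.07.

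NF-kB targets and cytokines rose less than the interferon group. Of 20 genes, 16 rose and 1 fell, with a median of 0.61. CCL2, a monocyte chemokine, went from 97.9 and 103 to 280.3 and 295 FPKM (1.51 ± 0.06, limma adjusted p = 5.45e-09). CCL20 rose from 0.932 and 0.563 to 4.80 and 4.69 FPKM and the adhesion molecule ICAM1 from 0.248 and 0.24 to 1.80 and 2.06 FPKM. The neutrophil chemokines CXCL3, CXCL2, CXCL8 and CXCL1 rose by 1.40, 1.37, 1.06 and 0.77, and the feedback inhibitors TNFAIP3 and NFKBIA by 0.58 and 0.28. IL1B fell by 0.42 to a mean of 0.801 FPKM. Of 18 complement and acute phase genes, 13 were tested, 6 rose and 1 fell, where 20.7% and 19% of all genes tested did. CFB, 1 of the 6, passed the filter on low values only through transfected groups. C1R and C1S, the proteases of the first complement complex, rose by 2.14 and 0.96, C1R from 13.9 and 11.9 to 54.6 and 62.1 FPKM. SERPINA1 fell by 0.67, and C3 moved by -0.03 without passing the threshold.

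Cell cycle genes were higher in the transfected cells. All 25 mitosis genes rose, by 0.64 to 1.30 with a median of 0.92, and all 25 S phase genes rose, by 0.32 to 1.30 with a median of 1.07. AURKB, the kinase that corrects chromosome attachment, stood at 29.4 and 28.9 FPKM without and 73.9 and 70.7 FPKM with transfection (1.30 ± 0.08, limma adjusted p = 1.37e-07). PLK1, a kinase of mitotic entry, went from 48.3 and 48.7 to 111 and 106 FPKM, and CDC20, the activator of the anaphase-promoting complex, from 43.9 and 45.5 to 98.2 and 98.5 FPKM. In each, the pairs of libraries were close together and the groups did not overlap. MCM5, a subunit of the replicative helicase, rose from 36.1 and 34.2 to 87.3 and 87.6 FPKM (1.30 ± 0.05, limma adjusted p = 3.68e-09), and MCM6 from 25 and 25.2 to 60.4 and 60.0 FPKM. E2F1, the transcription factor of S phase entry, rose from 8.66 and 8.05 to 20.5 and 19.7 FPKM. MKI67, the proliferation marker Ki-67, rose by 0.98, and PCNA, the sliding clamp that is also raised by DNA damage, by 0.39. The untransfected and transfected cells differed in time after seeding, and its part in these changes was not tested.

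Genes that p53 raises after DNA damage were lower. Of 29 listed, 27 fell and none rose, with a median of -0.70. CDKN1A, the cyclin-dependent kinase inhibitor p21, stood at 579.9 and 573 FPKM without transfection and 266 and 269 FPKM with the control gapmer. It fell by 1.11 ± 0.03 (SE) in log2 units (limma adjusted p = 1.57e-10). Parental A549 in solvent, which was not kept in cisplatin between experiments, had 84.2 FPKM of CDKN1A. The transfected resistant cells still stood above it. MDM2, the ubiquitin ligase that degrades p53, fell from 291 and 290.0 to 165 and 171 FPKM (0.79 ± 0.07, limma adjusted p = 2.06e-06), against 57.7 FPKM in A549. TP53INP1, which promotes p53-dependent cell death, showed the largest fall of the list, from 18 and 17.7 to 6.03 and 5.65 FPKM. ZMAT3, an RNA-binding p53 target, fell from 25.6 and 25 to 9.80 and 9.56 FPKM and BTG2, an antiproliferative gene, from 32.7 and 33.3 to 13.1 and 13.1 FPKM. FDXR, mitochondrial ferredoxin reductase, fell from 205 and 206 to 91.9 and 89.4 FPKM. In all of these the groups lay well apart. XPC, a damage recognition factor, and RRM2B, a ribonucleotide reductase subunit, fell by 0.70 and 0.89, whereas AEN and GADD45A, at -0.02 and -0.08, did not pass the threshold.

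**Figure D3:**
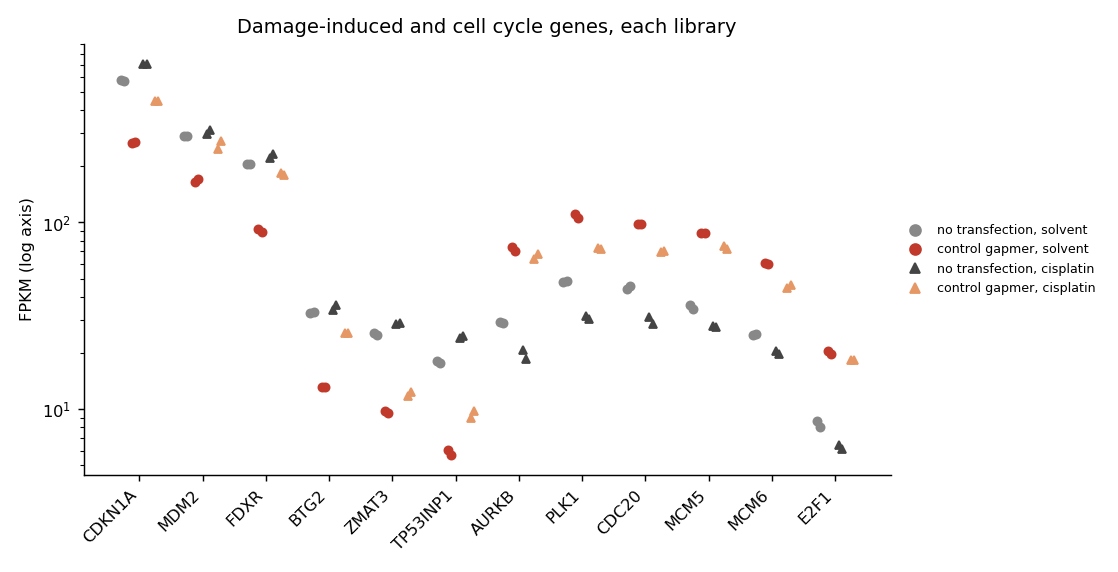
FPKM in each library, on a log axis, of 6 damage-induced genes (left) and 6 mitosis and S phase genes (right); circles are libraries in solvent, triangles in cisplatin, grey without transfection and red or orange with the control gapmer. In solvent the red circles lie below the grey ones for the damage-induced genes, as for CDKN1A at 266 and 269 against 579.9 and 573 FPKM, and above them for the cell cycle genes.

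Sterol synthesis genes were mostly lower. Of 24 genes of cholesterol synthesis and uptake, 19 fell and none rose, with a median of -0.58. MSMO1, a sterol methyl oxidase, went from 62.6 and 61.3 to 31.8 and 30.9 FPKM (a fall of 0.97 ± 0.07, limma adjusted p = 3.7e-07), and LSS, which closes the sterol rings, from 41.5 and 39.7 to 21.1 and 20.1 FPKM. Groups did not overlap for either gene. INSIG1, the sterol-sensing retention protein, fell by 0.81, and SREBF2, the master transcription factor, by 0.45. Of 21 genes of fatty acid synthesis and storage tested, 11 fell and 2 rose, where 19% and 20.7% of all genes tested did. The desaturases FADS1 and FADS2 fell by 0.96 and 1.04, FADS1 from 468 and 462 to 239 and 239 FPKM, and SCD by 0.86. SREBF1 and ANGPTL4 rose by 0.38 and 0.72. Cholesterol export did not move one way: ABCA1 fell by 0.73 and ABCG1, from 0.884 and 1.16 to 1.49 and 1.78 FPKM, rose by 0.49.

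Stress-linked lists moved less, and their counts stand beside 20.7% of all genes tested that rose and 19% that fell. Of 13 immediate early genes tested, 10 rose and none fell. EGR1 went from 0.395 and 0.393 to 3.58 and 5.48 FPKM (2.47 ± 0.19, limma adjusted p = 1.06e-06) and FOS from 0.593 and 0.692 to 3.75 and 4.85 FPKM, low levels in both groups. MYC rose by 0.52, and JUN, at 0.02, did not pass the threshold. Of 20 genes of the ATF4 and endoplasmic reticulum stress responses, 11 rose and 3 fell, ATF4 itself from 119 and 116 to 167 and 165 FPKM. Amino acid synthesis genes of that list did not share the rise: PSAT1 fell by 0.32, and ASNS and PHGDH, at -0.08 and -0.04, did not pass the threshold. Heat shock genes fell in 8 of 14 cases, led by HSPA1A, from 83.5 and 82 to 41.1 and 38.2 FPKM. Its near-identical copy HSPA1B fell by 0.83, and reads may be split between them. NRF2 targets fell in 17 of 25 cases and rose in none, with a median of -0.23. ALDH3A1, an aldehyde dehydrogenase, was the largest of these at a fall of 0.81, from 4850.3 and 4819 to 2829 and 2671 FPKM. Ferritin heavy and light chains (FTH1, FTL) fell by 0.35 and 0.32, and the iron exporter SLC40A1 by 0.66.

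Genes that handle the oligonucleotide itself were mixed. RNASEH1, the enzyme that gapmers recruit, stood at 27.2 and 29.6 FPKM without and 31.9 and 32.8 FPKM with transfection, and rose by 0.19 ± 0.06 (limma adjusted p = 0.0248). That call was lost under quantile normalization, where the change was 0.14, with no filter on low values, and when either control gapmer library or untransfected replicate 1 was left out. RNASEH2A, the catalytic subunit of the other RNase H, rose by 0.83, from 17.9 and 15.9 to 31.4 and 29.1 FPKM. Of 18 proteins known to bind antisense oligonucleotides, 13 rose and 1 fell, with a median of 0.26. PSPC1 and NPM1 were among those that rose, by 0.53 and 0.41, HSP90AA1 fell by 0.27, and YBX1, at 0.08, did not pass the threshold. Of 18 endocytosis and uptake genes tested, 9 fell and 1 rose. LRP1, a large scavenging receptor, went from 130.1 and 126 to 57.5 and 57 FPKM (a fall of 1.15 ± 0.06, limma adjusted p = 7.98e-08), and SCARB2, a lysosomal membrane receptor, was the 1 that rose, by 0.46. STAB1 and STAB2, receptors of phosphorothioate oligonucleotides in liver, stood at means of 0.0716 and 0.0313 FPKM without transfection and were not tested. Of 25 lysosome genes, 5 rose and 7 fell, with a median of 0.00 (-0.03 under quantile normalization). These counts are near the 20.7% and 19% of all genes tested that rose and fell.

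SCAT7, the RNA targeted by the other gapmer of the study, was read as ELF3-AS1, by the RefSeq gene table. It stood at 2.89 and 3.79 FPKM without transfection and 2.56 and 3.57 FPKM with the control gapmer, and the groups overlapped (-0.11 ± 0.17, limma adjusted p = 0.633). ELF3, which overlaps it on the opposite strand, stood at 37 and 35.2 and 37.6 and 36.7 FPKM (0.04 ± 0.06, limma adjusted p = 0.639). The SCAT7 gapmer in solvent gave IFI6 at 1546 and 1369, MX1 at 375 and 315 and CDKN1A at 626 and 623 FPKM, a comparison that shares the untransfected libraries and is given for its levels only.

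**Figure D4:**
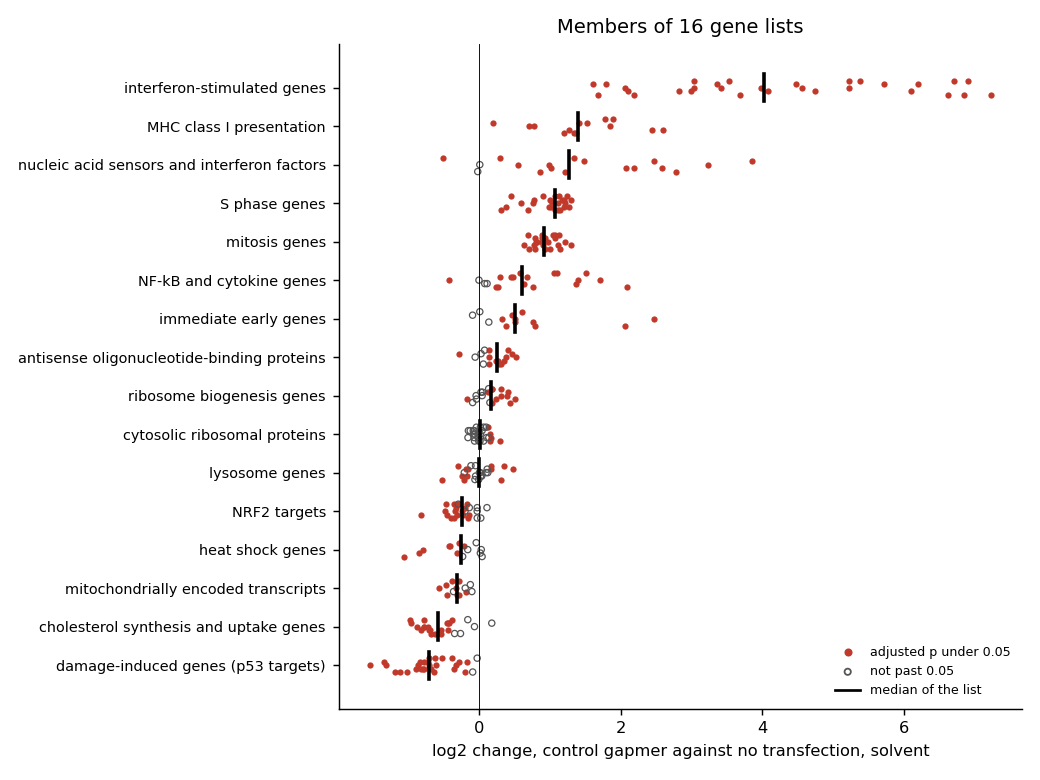
Each point is 1 tested gene of 16 lists, placed by its log2 change with the control gapmer against no transfection in solvent; filled points have an adjusted p under 0.05 and the bar is the median of the list. Medians run from 4.03 for interferon-stimulated genes to -0.70 for damage-induced genes, with ribosomal proteins at 0.02 and lysosome genes at 0.00 (-0.04 and -0.03 under quantile normalization).

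Lists of cell state were mixed, and several of their counts lay near the 20.7% and 19% of all genes tested that rose and fell. Of 16 epithelial genes tested, 7 rose and 2 fell. CDH1, E-cadherin, went from 3.02 and 2.83 to 5.26 and 5.67 FPKM (limma adjusted p = 3.8e-05) and DSP, desmoplakin, from 18 and 17.5 to 26.9 and 29.6 FPKM. Of 21 mesenchymal and matrix genes tested, 3 rose and 5 fell, ACTA2 from 41.8 and 40.4 to 25.8 and 23 FPKM and SNAI2 by 0.59, while LOXL2 and COL4A2 rose by 0.70 and 0.65. Of 16 TGF-beta targets, 9 rose and 1 fell, with TGFBI, a secreted matrix protein, at 638 and 614 and then 1063 and 1037 FPKM. Of 15 YAP targets, 4 rose and 5 fell: CCN2 rose by 1.01, and AJUBA and PTPN14 fell by 0.66 and 0.70. Among matrix proteases, MMP7 rose from 46.5 and 47.1 to 99.6 and 95.2 FPKM and the inhibitor SERPINE2 fell from 582 and 559 to 295 and 289.9 FPKM. Of 24 hypoxia and glycolysis genes tested, 8 rose and 3 fell, and PFKFB4, a regulator of glycolysis, fell by 1.01. Without control gapmer replicate 2 the counts were 5 and 2. Of 22 apoptosis regulators 8 rose and 5 fell, with BCL2A1 at 5.10 and 5.59 and then 10.1 and 9.53 FPKM. Of all genes tested 20.7% rose and 19% fell, and the apoptosis counts were 7 and 7 under quantile normalization. They were 7 and 3 without control gapmer replicate 1, 5 and 2 without control gapmer replicate 2, 6 and 3 without untransfected replicate 1, and 6 and 2 without untransfected replicate 2. LAMP3, listed as a marker of alveolar type 2 cells and also known as an interferon-induced lysosomal protein, rose from 1.58 and 1.56 to 26.9 and 36.3 FPKM. The surfactant genes SFTPB and SFTPC stood at no more than 0.0597 FPKM in any of the 4 libraries. LGALS9, galectin-9, rose from 0.203 and 0.378 to 3.37 and 4.30 FPKM, while LGALS3 fell by 0.31.

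Of 13 transcripts encoded by mitochondrial DNA, 9 fell and none rose, MT-CYB from 2675 and 2677 to 1833 and 1793 FPKM. Their median was -0.30, and under quantile normalization 6 fell, 1 rose and the median was -0.13. Without untransfected replicate 1, 5 fell. Nuclear genes of the respiratory chain rose in 4 and fell in 1 of 24 cases, where 20.7% and 19% of all genes did. Under quantile normalization 2 rose and 3 fell, and without control gapmer replicate 1 or untransfected replicate 2, 1 rose and 1 fell. Cytosolic ribosomal proteins rose in 5 of 27 cases, by at most 0.29 (RPL3), a share no larger than the 20.7% of all genes, and their median of 0.02 was -0.04 under quantile normalization, where 4 rose and 3 fell. Without control gapmer replicate 1 or untransfected replicate 1, 1 rose. Of 20 ribosome biogenesis genes 11 rose and 1 fell, with NOP56, a box C/D snoRNP protein, up by 0.51. Of 11 listed histone genes tested, 2 rose and 6 fell, where 20.7% and 19% of all genes did. Their changes ran from -0.84 to 1.69, the highest in a member not named here. The linker histone gene H1-10 rose by 1.06, and the replication-linked H1-2 and H4C8 fell by 0.64 and 0.84. Libraries came from oligo(dT)-selected mRNA, so these values of histone genes cover polyadenylated RNA only.

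Among genes picked by the naming rule, which is given with the processing, the largest falls were smaller than the largest rises. MIR4669, listed as a small RNA gene, had the lowest change of these, -2.22, with few reads behind it. In oligo(dT)-selected libraries such reads need not come from the small RNA. Over all genes tested the lowest change was -5.55, in a gene that the rule did not pick. GRIN2C, an NMDA receptor subunit, went from 26.8 and 27.1 to 7.68 and 7.29 FPKM (a fall of 1.78 ± 0.08, limma adjusted p = 2.42e-08). ACO1, the iron-responsive cytosolic aconitase, went from 19.7 and 18.9 to 6.35 and 5.34 FPKM (a fall of 1.65 ± 0.07, limma adjusted p = 1.45e-08). CYGB, cytoglobin, fell from 12.2 and 12 to 4.14 and 3.22 FPKM and PLXNB3, a semaphorin receptor, from 6.95 and 7.13 to 2.20 and 2.27 FPKM. In GRIN2C, ACO1, CYGB and PLXNB3 both transfected libraries lay below both untransfected ones, as the rule for naming them required. ACO1 ends 935 bases before the end of RIGI, on chromosome 9 at 32384603 to 32454769 (plus strand) and 32455705 to 32526324 (minus strand) of hg38, and RIGI rose by 2.58 while ACO1 fell. AJUBA-DT, a noncoding RNA that starts next to AJUBA, fell by 1.60, and the pseudogene NBEAP1 by 1.50. The others were TP53INP1, described above, 2 identifiers with no symbol (ENSG00000250753 and ENSG00000280746) and 3 small RNAs. Of these, MIR4669 rests on about 24 and 4 reads and SNORD116-1 on about 46 and 16, over the 2 libraries of each group. The calls for MIR4669 and ENSG00000280746 were lost with a pseudocount of 0.1, with no filter on low values, and when any of 3 of the 4 libraries was left out.

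Genes with the longest spans rose more often than others. Of 139 protein-coding genes that span over 500 kb, 66 rose (47.5%) and 17 fell (12.2%), with a median of 0.21. In the 4 bins of shorter genes, 24.2% to 27.5% rose and the medians were 0.01 to 0.04. The split by span was made after the values had been seen. Long genes that passed the filter on low values only through transfected groups were not counted apart, so the shares are a description. ELMO1, for instance, stood at 0.23 and 0.223 FPKM without and 0.738 and 0.688 FPKM with the control gapmer. With a mean of at least 1 FPKM required, 57 of 122 long genes rose and 16 fell. GMDS, an enzyme of fucose synthesis that spans 622 kb, went from 2.79 and 2.57 to 8.95 and 9.01 FPKM (limma adjusted p = 9.53e-07). WWOX, an oxidoreductase at a fragile site, spans 1113 kb and rose from 3.25 and 3.38 to 9.80 and 9.53 FPKM. CDH4, a cadherin, rose from 0.629 and 0.545 to 3.64 and 3.79 FPKM and RAD51B, a recombination factor, from 4.90 and 5.09 to 10.3 and 11 FPKM. Groups did not overlap in any of the 4. ASTN2, spanning 989.8 kb, fell by 1.04. Over all alternatives the median of the long genes stayed between 0.19 and 0.25. In cisplatin 76 of the 139 rose and 14 fell, with a median of 0.34.

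The same transfection in cisplatin, in libraries that are not among the 4 above, called 7289 genes (42.4%), 3956 higher (23%) and 3333 lower (19.4%). That split depended on the scaling: median ratio scaling gave 3498 higher and 3726 lower, and quantile normalization gave 3248 and 4158. Of the 3562 genes that rose in solvent, 2843 also rose in cisplatin, which is 79.8% of the first list and 71.9% of the second. Of the 3266 that fell in solvent, 2326 also fell in cisplatin, 71.2% and 69.8% of the lists. Calls in opposite directions numbered 20 and 14. Of the 348 genes up at least 2-fold in solvent, 323 also rose in cisplatin, and of the 126 down at least 2-fold, 86 also fell. All 30 interferon-stimulated genes, all 14 class I genes, all 25 mitosis genes and all 25 S phase genes rose in cisplatin too, with medians of 3.79, 1.25, 1.14 and 1.28. IFI6, for instance, went from 14.1 and 16.8 to 1398 and 1419.7 FPKM there.

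The difference of both effects, solvent minus cisplatin, was itself tested and passed the threshold for 324 genes (1.88%), 127 higher (0.738%) and 197 lower (1.15%). Here median ratio scaling gave 181 higher and 132 lower, and quantile normalization gave 137 and 154. None of the 30 interferon-stimulated genes was among the 324, a count close to the 1.88% of all genes tested. Damage-induced genes were, in 10 of 29 cases: they fell in 27 cases in solvent but in 22 cases in cisplatin, where 2 rose and the median was -0.32. CDKN1A stood at 708 and 711 FPKM without and 447 and 449 FPKM with the gapmer in cisplatin, so it fell by 0.66 there against 1.11 in solvent (difference -0.45 ± 0.04, limma adjusted p = 0.000223). FDXR fell by 0.32 in cisplatin against 1.18 in solvent (difference -0.86 ± 0.04, limma adjusted p = 2.62e-06). GRIN2C fell in both, from 28.4 and 33.9 to 17.1 and 17.8 FPKM in cisplatin, by less than in solvent.

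FOS showed the largest difference upward among genes past the threshold of that test. It was 8.66 and 5.56 FPKM without and 3.27 and 2.31 FPKM with transfection in cisplatin, a fall of 1.19, against its rise of 2.06 in solvent (difference 3.26 ± 0.27, limma adjusted p = 0.000223). EGR1 rose by 2.47 in solvent and moved by 0.19 in cisplatin, where the untransfected mean was already 3.41 FPKM. SPOCK1, a secreted proteoglycan, went from 43 and 40.0 to 69.4 and 72.6 FPKM in solvent and from 45.4 and 48.1 to 41.8 and 41.5 FPKM in cisplatin. LCN2, a siderophore-binding lipocalin, rose in both, by 1.35 in solvent and 2.56 in cisplatin, to nearly the same level (means of 25.7 and 26.4 FPKM) from different starting levels (9.76 and 4.07 FPKM). TRIM31, a ubiquitin ligase, likewise started at 3.28 and 1.09 FPKM and rose by 1.24 and 2.77. ELF3 did not pass the threshold in solvent and rose by 0.76 in cisplatin (limma adjusted p = 8.1e-07).

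**Figure D5:**
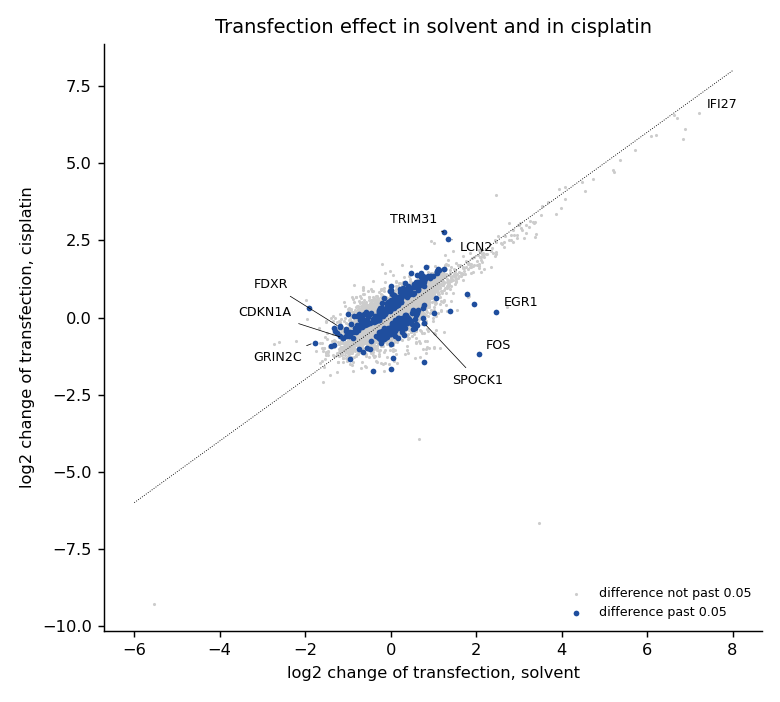
Each point is 1 gene tested, placed by its log2 change with the control gapmer in solvent (horizontal) and in cisplatin (vertical); blue points passed the test of the difference and the dotted line marks equal changes. The interferon-stimulated genes lie near the line at the upper right, FOS and EGR1 below it, and LCN2, TRIM31, CDKN1A, FDXR and GRIN2C above it.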

How the data were processed

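The data are FPKM values (read fragments relative to gene length and to all mapped fragments), given for each library as deposited by the authors. Per the submitters' processing notes, TopHat2 and HTSeq 0.6.1 were used, with hg38 as the build. Neither the annotation nor the counting strand is given in the sources used here. Libraries came from oligo(dT)-selected mRNA, per the labels' protocols. The protocols in the labels describe the interval between transfection and solvent in more than 1 way, and the text gives the 48 h version.

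Values were set on log2(FPKM + 0.5), a scale that understates the change of low genes, for genes whose mean over all 16 libraries reached 0.5 FPKM. All comparisons are two-sided contrasts of 1 fit with limma 3.58.1 in R 4.3.3, which has a mean for each of 8 groups of 2 libraries, a trended prior and 8 residual degrees of freedom. Adjustment was by Benjamini and Hochberg over 17198 genes, at a threshold of 0.05. Depth was recovered by finding the value of 1 read in low FPKM. In the 4 libraries 69.9% to 71.0% of low values then came out whole within 0.02 reads, and read numbers are approximate. Gene models (GENCODE 29, 56868 identifiers) and symbols (56434 identifiers) were matched by identifier.

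The comparison and the 40 gene lists were chosen with earlier results of these data known, so a list's count describes it and is no independent support. Genes named were the 12 largest rises and 12 largest falls past the threshold (at least 5 FPKM in the higher group, groups not overlapping), up to 4 called members of each list by absolute change, the 5 largest differences of effect each way, and ELF3-AS1, ELF3, CDKN1A, MDM2, RNASEH1, HNRNPK, YBX1 and TOP1. Some genes that met the rule are not reported here. Further list members are named for their role; families taken by name and the split by gene span were added after values had been seen. Alternatives were a pseudocount of 0.1 or 1, no filter or a mean of at least 1 FPKM, median ratio scaling, quantile normalization, only the libraries compared, only the 12 libraries of the resistant line, the replicate number as a block, and leaving out each library.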

Additional observations from a re-analysis of the deposited data

Results flagged for a closer look

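Each gene below had an effect of control gapmer transfection that differed between solvent and cisplatin by a test of the difference itself (limma adjusted p under 0.05). Values are the effect in solvent minus the effect in cisplatin on the log2 scale. Of the genes named by rule, 25 met this.

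Among damage-induced genes the effect in solvent was lower for FDXR (-0.86), BTG2 (-0.85), MDM2 (-0.55) and CDKN1A (-0.45). ENSG00000257181 (-1.09), on chromosome 12 at 68841288 to 68843237, lies within MDM2 (68808176 to 68850686) on the opposite strand, and with the strand setting not stated its reads cannot be told from those of MDM2. Its call was lost with no filter, with only the 12 libraries of the resistant line, and when any 1 of the 8 libraries was left out.

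FOS (3.26) and EGR1 (2.28) rose in solvent from levels far below those of untransfected cells in cisplatin. GRIN2C (-0.97) fell further in solvent. TRIM31 (-1.52), LCN2 (-1.21), AGFG2 (-1.01) and ELF3 (-0.72) had the lower effect in solvent. AGFG2 stood at 10.9 and 10.3 FPKM without and 11 and 10.4 FPKM with transfection in solvent, and at 5.55 and 5.74 and 12.4 and 11.6 FPKM in cisplatin, so the low group was untransfected cells in cisplatin.

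Higher effects in solvent were found for SPOCK1 (0.93), CLDN14-AS1 (0.93), CCN2 (0.86), MMP2 (0.53), NT5E (0.51), H1-2 (0.49), TGFBI (0.45), H1-10 (0.42), SERPINE2 (0.39), ATF4 (0.34) and SLC7A11 (0.31). For MMP2, SERPINE2, SLC7A11 and H1-2 this means a smaller fall in solvent than in cisplatin. MIRLET7D (1.38) and ENSG00000276924 (2.23) also differed. In solvent the former moved by 0.06 and the latter by 0.79, neither past the threshold there. MIRLET7D is a small RNA gene, and reads listed for it in oligo(dT)-selected libraries need not come from the small RNA.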

How the results depend on the processing

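Over the alternatives the count of genes called in solvent ran from 5103 to 6938 against 6828, with 2696 to 3583 higher and 2407 to 3759 lower. The lowest counts came from leaving out 1 of the 4 libraries (5103 to 5268), which leaves 1 group with a lone library assumed to vary like the other groups. Of the genes called, 4991 to 6785 were called in the same direction under an alternative as well. In cisplatin 5569 to 7406 genes were called. The count for the difference of both effects was the least steady: 165 genes (65 higher, 100 lower) with only the 12 libraries of the resistant line, 129 lower with no filter on low values, and 110 to 329 genes when 1 library was left out (39 to 126 higher, 71 to 203 lower). Leaving out untransfected replicate 1 in cisplatin gave the high end, and each of the other 7 libraries the low end, 110 to 144 genes.

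Of 169 values for named genes, 146 kept their direction and their side of the threshold under every alternative and none reversed. The most calls were lost by leaving out untransfected replicate 1 (17) or control gapmer replicate 1 (16), and 11 were lost with no filter on low values. CRYAB, MUC20, NKX2-1 and RPL19 were among those lost in several settings. Of 38 list medians, 6 changed sign, all of them small. The interferon-stimulated list kept 30 of 30 genes higher throughout, with medians from 3.75 to 4.43.

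Same-numbered replicates deviated together at a correlation of only 0.07 between the untransfected and control gapmer groups in solvent and 0.01 in cisplatin. Low values cannot show whether the numbers pair the libraries, since the spread between libraries may be technical. The main fit used no pairing. With the replicate number as a block 6695 genes were called in solvent, 7163 in cisplatin and 280 for the difference. Replicates of 2 libraries, approximate read numbers and the missing strand setting limit low, short and overlapping genes.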
